A study of Mus musculus with 10 samples.

Results

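Constitutive gene-end regions were open-chromatin regions of the mouse cochlea that were called at all 3 ages studied and lay at the start or end of a gene. Peaks of the P2, P5 and P8 lists that overlapped by at least 1 base were merged, and a region was kept when it held a peak of every list and its midpoint lay within 1 kb of either end of an annotated gene. The members were thus chosen by the peak calls themselves, so their presence at every age is the rule and not a finding. Of 64911 merged regions, 32681 held a peak of all 3 lists and 12208 met the rule. That is 37.4% of the regions called at every age (95% Wilson interval 36.8 to 37.9, here and below counting error only).

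Open chromatin was mapped with ATAC-seq, an assay that reads where a transposase can cut into DNA, on nuclei purified over an iodixanol gradient from both cochleae of each mouse. All mice were of the outbred CD1 stock, with no other allele and no treatment named. There were 3 animals at postnatal day 2 (P2), 3 at day 5 (P5) and 4 at day 8 (P8). Only 1 list was used per age, with 52085 peaks for P2, 47683 for P5 and 43878 for P8, each pooling its animals. No difference between ages therefore has a replicate check, and no p-value is given. Read numbers are not part of the lists, and the depth behind them is unknown here. No cell type was sorted, and in such bulk tissue fewer cells of a type and less open chromatin per cell cannot be told apart.

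Gene starts are held open where transcription factors and the transcription machinery keep nucleosomes away. Many starts of broadly used genes lie in CpG islands, stretches where CpG pairs have escaped the loss seen in the rest of the genome, and are bound by SP/KLF, ETS, NRF1, NFY and YY1 factors. Genes used in few cell types more often have starts poor in CpG, some with a TATA box, the site where the TATA-binding protein sets the place of initiation.

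The sequences of 8 gene starts show the range, from the highest-ranked member to a gene with no region at its start. They were selected after the values were seen. Each runs from 150 bases before the start base to 20 bases from it onward, so that the start is base 151, and is taken from RefSeq on GRCm38.p6, the same coordinates as the mm10 build of the peak lists. Capitals mark matches, on either strand, to the motifs named for each gene after the sequences.
Lins1, chr7:66689739-66689908, plus strand: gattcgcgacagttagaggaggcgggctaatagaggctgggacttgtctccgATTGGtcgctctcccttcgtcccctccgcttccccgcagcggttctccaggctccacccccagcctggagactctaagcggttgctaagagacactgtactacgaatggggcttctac
Rpl37, chr15:5116463-5116632, plus strand: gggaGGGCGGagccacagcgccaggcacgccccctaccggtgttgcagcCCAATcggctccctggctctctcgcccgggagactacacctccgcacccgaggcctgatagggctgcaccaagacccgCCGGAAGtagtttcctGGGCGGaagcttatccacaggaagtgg
Psmc5, chr11:106256035-106256204, plus strand: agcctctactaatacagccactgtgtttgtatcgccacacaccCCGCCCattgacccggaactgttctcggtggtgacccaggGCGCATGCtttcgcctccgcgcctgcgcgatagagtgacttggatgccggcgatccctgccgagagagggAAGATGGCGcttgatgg
Fos, chr12:85473740-85473909, plus strand: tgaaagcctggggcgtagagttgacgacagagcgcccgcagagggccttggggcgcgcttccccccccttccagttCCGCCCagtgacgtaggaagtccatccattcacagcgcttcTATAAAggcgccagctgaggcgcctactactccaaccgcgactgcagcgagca
Gjb2, chr14:57104683-57104852, minus strand: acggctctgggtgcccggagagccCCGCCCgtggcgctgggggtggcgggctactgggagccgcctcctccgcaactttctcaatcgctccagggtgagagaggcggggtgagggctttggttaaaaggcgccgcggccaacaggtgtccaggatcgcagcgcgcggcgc
Krt8, chr15:102004323-102004492, minus strand: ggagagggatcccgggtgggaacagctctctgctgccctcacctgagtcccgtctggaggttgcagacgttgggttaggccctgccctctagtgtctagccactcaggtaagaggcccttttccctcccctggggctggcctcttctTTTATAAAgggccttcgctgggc
Gjb6, chr14:57133592-57133761, minus strand: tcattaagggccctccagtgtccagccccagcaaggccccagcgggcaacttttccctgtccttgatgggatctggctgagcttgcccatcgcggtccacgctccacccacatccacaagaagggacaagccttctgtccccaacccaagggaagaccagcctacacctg
Olfr1, chr11:73399476-73399645, minus strand: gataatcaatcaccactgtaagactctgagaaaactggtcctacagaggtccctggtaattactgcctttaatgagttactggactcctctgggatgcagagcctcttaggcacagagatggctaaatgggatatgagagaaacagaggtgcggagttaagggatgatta

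The Lins1 start, which points away from that of Asb7, held the NFY box CCAAT on the opposite strand, and its member ranked 5 of the P2 list, 4 of the P5 list and 1 of the P8 list. Rpl37 encodes a protein of the large ribosomal subunit. Its start held the SP/KLF box GGGCGG, the NFY box and the ETS core CCGGAAG, and its member, also near an end of Card6, stood at percentiles 99.1 at P2, 97.9 at P5 and 98.7 at P8, where 100 is the highest peak of a list by the authors' ranking value. Psmc5, a proteasome ATPase, held the SP/KLF box, the NRF1 site GCATGCGC and, just after its start, the YY1 site AAGATGGCG. Its member, also near an end of Ftsj3, stood at 91.6, 93.9 and 94.0. Fos, an immediate early transcription factor gene, held the SP/KLF box and the TATA box TATAAA, and its member stood at 81.9, 83.0 and 87.4. Gjb2, the gap junction gene whose loss causes deafness, held the SP/KLF box alone, and its member stood at 75.4, 63.1 and 70.5. Krt8, a keratin of simple epithelia, held the letters TATAAA in the stretch shown only across its listed start base, not before it where a TATA box works, and had a low member, at 42.0, 20.5 and 27.2. Its 300-base start window had a ratio of observed to expected CpG of 0.238, against 0.760 for Gjb2. The other connexin gene of the inner ear, Gjb6, had a CpG ratio of 0.255 and a region at P8 only, at percentile 5.30. Olfr1, an odorant receptor gene, had a ratio of 0.0797 and no region at its start.

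Most members sat at gene starts. A start was within 1 kb of the midpoint of 8960 members (73.4%, 72.6 to 74.2), while 717 (5.87%) lay at a 3-prime end only. The other 2531 (20.7%) lay at a gene whose strand the RefSeq promoter table did not give, so their end could not be named. Starts on chromosome 18 were among those not analysed here, so its 320 members and 510 protein-coding genes have no part in the distances to starts, start windows, motifs and divergent pairs. A protein-coding gene end was near 10419 members (85.3%), a long non-coding RNA gene alone near 1453 (11.9%), and neither near 336 (2.75%). Among the 8689 members within 1 kb of a listed start, the midpoint lay a median of 34 bases upstream, with quartiles from 87.5 bases upstream to 7.5 bases downstream, and 66.4% (65.4 to 67.4) lay within 100 bases. Of the 2074 regions near listed starts that were called at 1 or 2 ages, 39.5% (37.5 to 41.7) lay that close. Regions near a gene end were called at all 3 ages in 73.8% of cases (73.1 to 74.5), against 42.3% (41.9 to 42.8) of regions elsewhere.

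**Figure D1:**
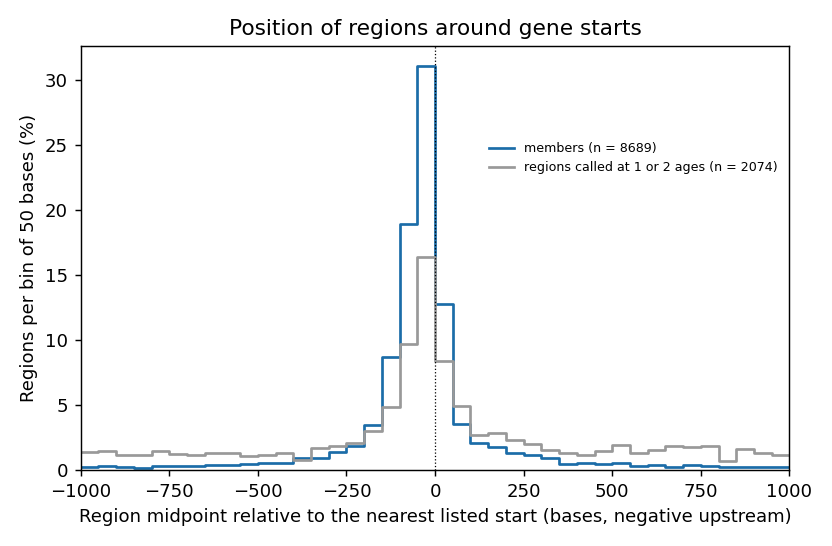
Midpoints of regions relative to the nearest listed gene start, in bins of 50 bases, as a percentage of each kind of region. The tallest bin of the members, just upstream of the start, holds 31.1%, against 16.4% for regions called at 1 or 2 ages.

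The 1 kb limit left out some gene starts. Of the 20473 regions called at every age and lying away from gene ends, 1273 (6.22%) were within 1 kb of a listed start inside a gene. Actb, the cytoplasmic actin gene, had no region within 1 kb of an end at any age, and whether the limit left one out was not assessed. Just inside the limit were the members of Prr7, at 1000 bases from the nearest gene end (percentiles 40.6, 37.3 and 71.9), Sardh at the same distance (94.7, 92.8 and 87.8) and the long non-coding gene Gm32563 at 999 (56.3, 51.3 and 54.8). The 3 nearest regions outside it, at most 1 base past the limit, had mean percentiles of 83.6, 98.5 and 46.1. The region at 83.6 lay 49.5 bases upstream of a listed start, and that at 98.5 lay 4 bases downstream of one. The Sardh member also lay 29 bases upstream of a listed start. The values on both sides of the limit overlapped.

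Members held most of the top of every list. Part of this is built in, because the rule asks for a call in every list and the ranking value decided the calls. The regions called at every age away from gene ends met the same demand and are the closer comparison. Members held 23.6% of the peaks of the P2 list, 25.7% of the P5 list and 27.9% of the P8 list. Among the 100 peaks with the highest ranking values they held 93 of the P2 list, 96 of the P5 list and 95 of the P8 list. Of the 1000 highest, they held 91.0%, 90.9% and 90.7%. In the lowest 10% of the lists they held 1.5%, 3.81% and 4.99%. The median member stood at percentile 85.4 of the P2 list, 82.9 of the P5 list and 81.8 of the P8 list. Regions called at every age away from gene ends stood at 58.1, 56.6 and 51.5. On the authors' ranking value, a −log10 p-value, the medians were 215, 87.1 and 77.2 for members and 70.7, 39.1 and 30.6 for those other regions. The ranking values fell on different scales in the 3 lists, so each is read only against others of its own list.

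**Figure D2:**
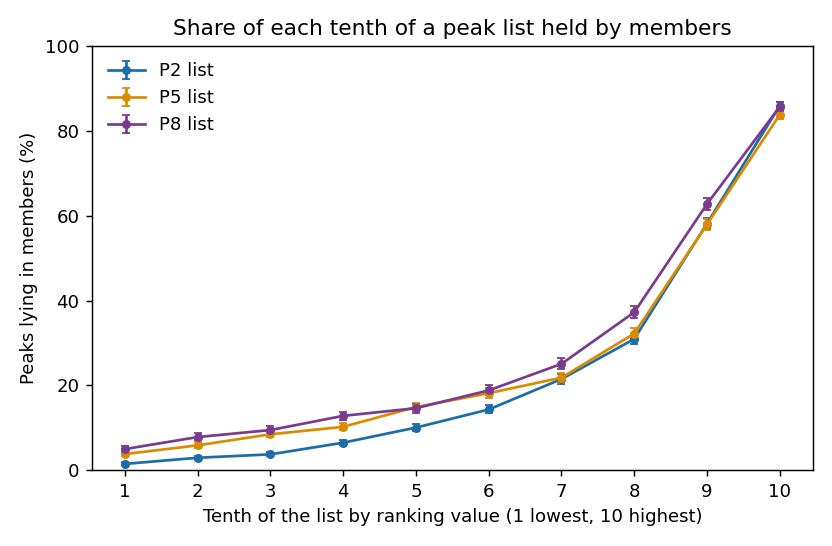
Share of peaks lying in members for each of 10 equal parts of a list, from the lowest to the highest ranking values, with 95% Wilson intervals. The share rises along each list, to 85.9% at P2, 83.8% at P5 and 85.7% at P8 in the highest part. Part of the rise is built into the rule, which asks for a call in every list.

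The height of members within the lists differed by class. Members at starts had a median mean percentile over the 3 lists of 86.0 (quartiles 69.8 and 93.7), those at genes of unknown strand 75.5 (54.3 and 89.0) and those at a 3-prime end only 53.0 (38.3 and 69.2). The last value was close to the 53.0 (37.6 and 69.0) of regions away from gene ends. The place of a member also varied little between lists. The difference between its highest and lowest percentile had a median of 6.07 points (quartiles 2.58 and 15.7), against 18.4 (9.45 and 29.9) for regions away from gene ends. In all, 77.3% of members (76.5 to 78.0) stood in the upper 50% of every list, against 38.7% (38.0 to 39.4). Percentiles near 100 have less room to vary, and members were concentrated there.

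Peaks at members were also wide. The deposited peaks have 1 fixed width, but each line carries the 2 input peaks it came from. Their mean width had a median of 872 bases at P2, 923 at P5 and 967.5 at P8 in members, against 574.5, 659 and 665 in the regions away from gene ends. Within the band from percentile 80 to 100 the medians were 915.5 and 727 at P2, 966 and 807 at P5, and 1028.5 and 866 at P8. From percentile 0 to 20 they were 546.5 and 512.25 at P2, 721 and 569 at P5, and 653 and 553 at P8, so members were the wider group at like percentiles in each list. Members at a 3-prime end only had widths of 582, 645 and 651 bases, near those of the regions away from gene ends.

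Peak centres of members lay close together across the lists. Part of this is built in, because only overlapping peaks were merged, in members and in regions away from gene ends alike. Among 12111 members with exactly 1 peak of each list, the largest distance between the 3 centres had a median of 9 bases, and was at most 50 bases in 83.1% (82.5 to 83.8). For regions away from gene ends the median was 14 bases and the share 75.5% (74.9 to 76.0). That order did not hold at every height. Between percentiles 80 and 100 the shares were 86.4% (85.6 to 87.2) and 81.4% (79.7 to 83.0), but between 0 and 20 they were 53.5% (46.0 to 60.8) in 172 members and 65.3% (62.4 to 68.2) in 1038 other regions. In the bands between, the median distances were near equal, at 18 and 19 bases from percentile 20 to 40, 14 and 15 from 40 to 60, and 11 and 11 from 60 to 80. Distances were shorter at higher percentiles in both groups, and members were concentrated there.

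The highest members belonged to genes of varied function. After Lins1 and Asb7 came Gins2, a subunit of the complex that opens DNA for replication, with ranks 6, 1 and 5 in the P2, P5 and P8 lists (chr8:120589037-120589536). The shared start of Zfp654 and Cggbp1, whose product binds CGG repeats, ranked 10, 15 and 2. Pja2, a ubiquitin ligase, ranked 11, 8 and 10, and Bcl10, a signalling adaptor of immune receptors, 2, 9 and 24. H2az2, a histone variant, ranked 22, 17 and 3. The pair Grk4 and Nop14 ranked 27, 3 and 17, pyruvate carboxylase (Pcx) 24, 6 and 18, Narf 14, 25 and 13, and the aspartyl aminopeptidase Dnpep 4, 28 and 21, the last holding a peak that shares its inputs with another.

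The lowest members mostly lay at 3-prime ends or at genes of unknown strand. The region at the 3-prime ends of Cyb5r2 and Ppfibp2 stood at percentiles 3.06, 1.92 and 2.80 and that at the 3-prime end of Sec22a at 4.09, 2.73 and 3.77. The region at Cdh5, the cadherin of endothelial cells, stood at 11.7, 1.83 and 2.09. Gm42125 stood at 7.25, 1.74 and 9.87 and Ext1, an enzyme of heparan sulfate synthesis, at 2.76, 11.7 and 5.13.

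Some members held very different places in the 3 lists. The widest spread was a region beside Usf1, a transcription factor gene, at 0.440, 94.8 and 95.9, but its later peaks drew on the same input peaks as a neighbouring peak, so these values belong to a shared call. That was so for 38 members (0.31%). The next were Gm39068 (3.05, 62.7 and 80.4), Hif3a, a hypoxia factor gene (82.4, 53.4 and 6.32), E330032C10Rik (0.190, 57.4 and 74.1) and Efcab1, a gene of motile cilia (81.8, 71.2 and 8.18). A range above 30 points was found for 1165 members (9.54%, 9.03 to 10.1). These are places within lists of different lengths, from 1 list per age, and they can show neither a change with age nor its absence.

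Starts with a member were rich in CpG. A RefSeq window of 300 bases, from 250 before to 50 after the start, was available for 15745 protein-coding genes of known strand. A member lay within 1 kb of 8250 of these starts, another region at 1063, and no region at 6432. Median GC content was 62%, 59.3% and 47% in that order. The median ratio of observed to expected CpG was 0.793 (quartiles 0.636 and 0.928), 0.573 (0.344 and 0.769) and 0.189 (0.0923 and 0.350). It reached 0.6, the usual mark of a CpG island, in 79.0% (78.1 to 79.9), 46.7% (43.7 to 49.7) and 10.7% (10.0 to 11.5).

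Motifs of factors that bind such starts followed the same order. Each was searched by exact letters on both strands of the window, and matches of different motifs could share bases. GGGCGG was found in 69.8% of windows with a member (68.8 to 70.8), 54.4% (51.4 to 57.3) with another region and 15.9% (15.1 to 16.9) with none, and in 46.8% of all windows. CCGGAAG, the ETS core, was found in 19.8% (19.0 to 20.7), 4.99% (3.83 to 6.46) and 3.23% (2.83 to 3.69), and in 12% of all. GCATGCGC, the NRF1 site, was found in 5.99%, 2.45% and 1.04%, and in 3.73% of all. AAGATGGCG, the YY1 site, was found in 3.52%, 0.847% and 0.249%, and in 2.00% of all. TGACGTCA, the CREB/ATF site, was found in 3.73% (3.35 to 4.16), 1.13% (0.647 to 1.96) and 0.855% (0.658 to 1.11), and in 2.38% of all. For this site the intervals of starts with another region and with none overlapped. CCAAT did not follow this order, with 40.1% (39.0 to 41.1), 31.6% (28.9 to 34.5) and 39.9% (38.7 to 41.1), and 39.4% of all.

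Other motifs ran the opposite way. TATAAA was found in 6.08% of windows with a member (5.59 to 6.62), 10.3% (8.57 to 12.2) with another region and 23.9% (22.9 to 25.0) with none, and in 13.7% of all. On the sense strand 15 to 40 bases before the start, where a TATA box works, it was found in 0.970%, 2.73% and 5.47%. TGANTCA, the AP-1 site, was found in 3.95%, 7.24% and 10.9%, and in 7.00% of all. The place of the YY1 site differed between strands. At members its 225 matches on the sense strand had a median position 17 bases after the start, with quartiles from 2 bases before to 26 after it. Its 77 matches on the antisense strand had a median 86 bases before the start, with quartiles from 153 bases before to 2 after it.

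CpG content moved with these shares, so they were also counted in windows with a CpG ratio of at least 0.6, a choice made after seeing the data. There GGGCGG was at 75.6% (74.5 to 76.6) in 6518 windows with a member, 75% (71.0 to 78.6) in 496 with another region and 62.3% (58.6 to 65.8) in 689 with none. CCGGAAG was at 22.3% (21.3 to 23.3), 5.24% (3.60 to 7.57) and 10.3% (8.25 to 12.8), and AAGATGGCG at 4.17% (3.71 to 4.69), 1.41% (0.685 to 2.88) and 1.45% (0.790 to 2.65). TGACGTCA was at 4.27% (3.80 to 4.78), 1.01% (0.431 to 2.34) and 3.05% (2.00 to 4.61), so members and starts with no region overlapped. The same held for CCAAT, at 39.3% (38.1 to 40.5), 27.2% (23.5 to 31.3) and 37.7% (34.2 to 41.4). The intervals of GCATGCGC overlapped, at 6.92% (6.33 to 7.56), 4.44% (2.95 to 6.62) and 5.52% (4.04 to 7.48). TATAAA was at 5.39% (4.86 to 5.96), 7.86% (5.81 to 10.6) and 9.72% (7.73 to 12.2), while TGANTCA was at 3.22% (2.82 to 3.68), 4.64% (3.11 to 6.86) and 4.21% (2.95 to 5.98), with overlapping intervals. TCTCGCGAG, a ZBTB33-type site, was found in 1.99% (1.68 to 2.36), 0.403% (0.111 to 1.46) and 2.47% (1.55 to 3.92), so that members and starts with no region overlapped, against 1.66%, 0.282% and 0.326% of all windows of each kind.

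**Figure D3:**
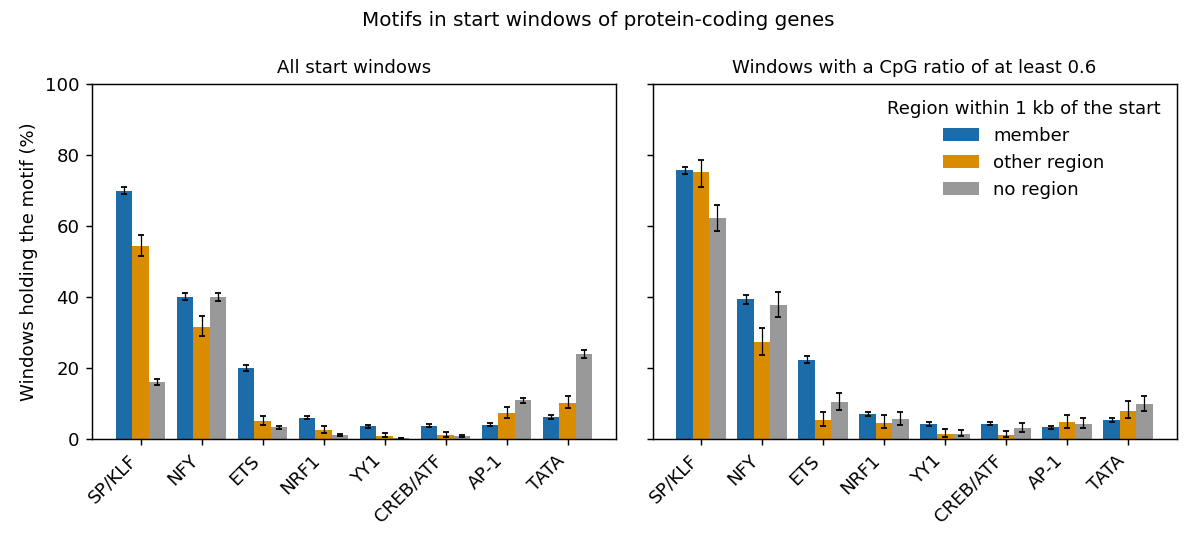
Share of 300-base start windows that hold each motif, by the region within 1 kb of the start, with 95% Wilson intervals, in all windows on the left and in those with a CpG ratio of at least 0.6 on the right. The ETS bars of members stay the highest on both sides, while the TATA and AP-1 bars of starts without a region are tall on the left.

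Height within the lists went with the same motifs. From members between percentiles 20 and 40 to those between 80 and 100, the share of start windows with CCGGAAG went from 7.35% (340 windows) to 23.8% (5791 windows). GCATGCGC went from 2.06% to 7.24%, AAGATGGCG from 0.294% to 4.40% and CCAAT from 23.8% to 44.7%. GGGCGG stood at 66.8% (61.6 to 71.6) and 71.3% (70.1 to 72.4), with overlapping intervals, and TGANTCA ran from 7.06% down to 3.47%. The median CpG ratio was 0.644 and 0.819 in these bands. Below percentile 20 there were only 46 windows, with GGGCGG in 52.2% (38.1 to 65.9) and CCGGAAG in 6.52% (2.24 to 17.5).

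Divergent gene pairs stood high. At 1281 of the 8689 members at listed starts (14.7%, 14.01 to 15.5) the starts of 2 genes faced away from each other, and in 688 both were protein-coding. The gap between the 2 starts had a median of 140 bases (quartiles 70 and 277). These members had a median mean percentile of 91.2 (83.9 and 96.4), against 84.9 (68.5 and 93.2) at other listed starts. Of 746 pairs of protein-coding genes with starts up to 1 kb apart, 90.9% (88.6 to 92.7) had a member. Of all 1662 divergent pairs of listed starts that close, it was 76.6% (74.5 to 78.6). Among protein-coding genes of known strand taken singly, 49.5% had a member at the start, but a pair has 2 starts where a member can lie. The highest were Asb7 with Lins1 (gap 328 bases), Nop14 with Grk4 (231), Calr, a calcium-binding chaperone of the endoplasmic reticulum, with 1700122E12Rik (216), 2810414N06Rik with Edem3 (356) and Rnft2 with Spring1 (202). The Spring1 member had ranks 1, 26 and 55 in the lists from youngest to oldest.

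About as many protein-coding genes had a member as lacked one. Within 1 kb of either end, 11162 of 21883 had one, which is 51% (50.3 to 51.7), and at the start it was 8666 of the 17491 genes of known strand, or 49.5% (48.8 to 50.3). Of 9804 starts with any region, 88.4% (87.7 to 89.0) had a member. The share was 52.4% (51.8 to 53.1) for genes on autosomes, 33.9% (30.9 to 36.9) for those on X and 1 of 256 on Y. Among autosomes it ran from 41.9% on chromosome 7 and 42.7% on chromosome 14 to 61.8% on chromosome 8.

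Genes of basic cell machinery had members in larger shares than the 51% of all genes, though the interval of the small CCT group (45.3 to 93.7%) held that value. For the genes of protein synthesis, 70 of 86 cytosolic ribosomal protein genes, 69 of 78 mitochondrial ribosomal protein genes, 43 of 52 translation initiation factor genes and 30 of 34 tRNA synthetase genes had one. Mrps14 (percentiles 98.9, 99.9 and 99.7) was the highest mitochondrial ribosomal member, and Eif5, which triggers start codon selection, stood at 99.6, 99.8 and 99.5. The lowest mitochondrial ribosomal member was at Mrpl3, with 51.1, 41.3 and 34.8, and the lowest cytosolic one at the 3-prime end of Rpl22, with 66.3, 45.6 and 35.2. For transcription, 28 of 30 Mediator genes and 25 of 27 RNA polymerase subunit genes had a member, led by Med29 (99.5, 99.6 and 98.9) and Polr3k (99.5, 99.02 and 97.8). For protein folding and breakdown, 35 of 39 proteasome genes, 11 of 14 anaphase-promoting complex genes and 7 of 9 CCT chaperonin genes had one, led by Psmc4 (98.5, 98.8 and 99.3), Cdc26 (99.2, 99.6 and 99.1) and Tcp1 (99.8, 99.7 and 99.7). Of 39 respiratory complex I genes, 32 had one, Ndufv1 the highest at 99.7, 99.4 and 99.5. The medians of these groups, taking the best member of each gene, lay between 89.2 and 94.2, against 87.3 over all protein-coding genes with a member.

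Sharing of a member between neighbours was common in these groups. Another protein-coding gene had an end within 1 kb of it for 33 of the 69 mitochondrial ribosomal genes and 17 of the 32 complex I genes, so the member cannot be given to 1 gene there. Linker and core histone genes had a member in 40 of 68 cases (47.0 to 69.7%, which holds the 51% of all genes), from only 27 distinct regions. Their copies are near-identical and lie in clusters, and the placing of reads from such copies is not stated. H2ac12 and H2bc12 shared the highest (90.8, 97.4 and 95.8).

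Regulatory genes varied by group. Of 20 circadian clock genes 18 had a member, Per2 at 99.5, 99.1 and 98.4 and Cry2 at 99.8, 98.6 and 98.6, and those without were Arntl and Nfil3. Of 22 cell cycle genes 19 had one, among them the replication helicase subunit Mcm3 (99.7, 99.2 and 98.8). Immediate early and stress genes, which respond fast to stimuli, had one in 17 of 20 cases, with Dnajb1, a heat shock co-chaperone, at 99.3, 98.8 and 98.4. Of 23 genes of factors that bind CpG-rich promoters 21 had one. Zfp143 stood at 99.8, 99.9 and 100.0 and Nfya at 99.2, 99.2 and 99.5, whereas Kdm2b stood at 36.6, 17.6 and 0.353. Chromatin and DNA methylation regulators had one in 21 of 27 cases, Smarca4, a remodelling ATPase, at 97.5, 98.0 and 96.9, while Ep300 had a region at P8 only. Of 394 Zfp zinc finger genes 285 had a member (72.3%, 67.7 to 76.5). Of 369 solute carrier genes 200 had one (54.2%, 49.1 to 59.2), near the share of all genes. Of 24 Notch, Wnt and Hedgehog genes 17 had one (50.8 to 85.1%, an interval that holds the 51% of all genes). Gsk3b led them (99.6, 99.2 and 99.4), while the Notch ligand gene Dll1 was called at P2 alone and Ptch1 at no age.

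Several large gene families had members in smaller shares than the 51% of all genes. It was 4 of 1106 olfactory receptor genes, 1 of 353 vomeronasal receptor genes, 0 of 70 defensin genes (upper 95% bound 5.20%), 1 of 52 keratin-associated protein genes and 5 of 63 serpin genes. Cytochrome P450 genes had 18 of 93 and keratin genes 7 of 53. The olfactory receptor with the highest member was Olfr159 (54.1, 69.8 and 65.6). The vomeronasal receptor gene was Vmn1r4 (90.01, 92.8 and 93.5). Among keratins, Krt10 had its member at the 3-prime end (84.5, 79.5 and 81.1). The clustered protocadherin genes had 2 of 55, Pcdhgc3 (94.1, 94.0 and 94.9) and Pcdhgc4 (44.5, 31.8 and 26.8).

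**Figure D4:**
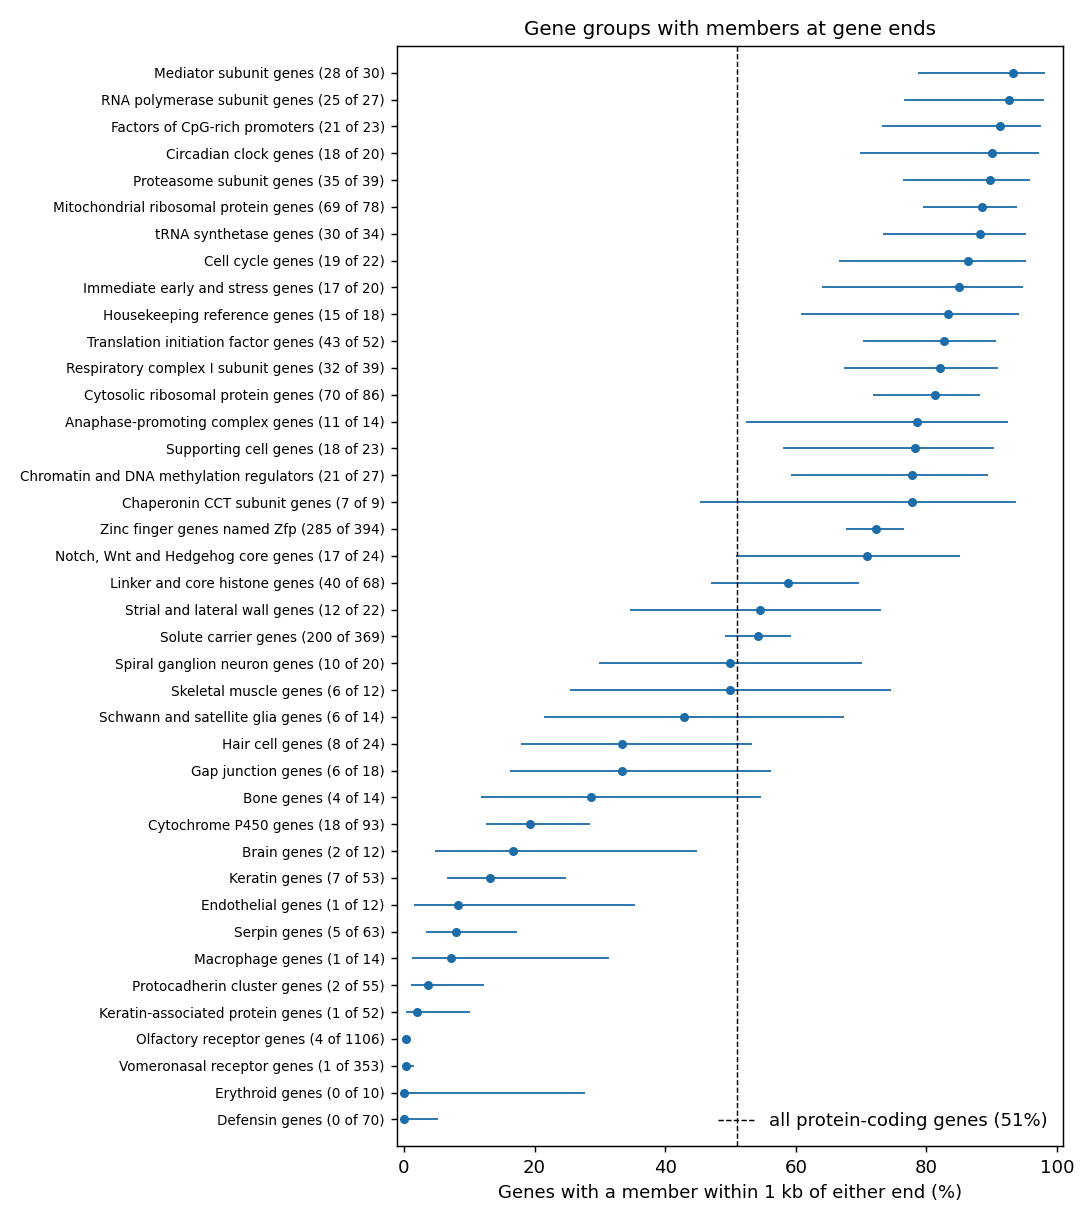
Share of genes with a member within 1 kb of either end in each of 40 gene groups, with 95% Wilson intervals and the counts in the labels. The dashed line is the 51% of all protein-coding genes. Groups of cell machinery lie to its right, and receptor and defensin families near 0.

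Genes that mark cochlear cell types had members in shares from 33.3% to 78.3%, beside the 51% of all protein-coding genes. Supporting cells surround the hair cells and receive Notch signals from them, and 18 of their 23 marker genes had a member (78.3%, 58.1 to 90.3). Id2 (94.1, 92.4 and 95.1) and Hey2 (95.9, 91.4 and 94.0) were the highest, the first an inhibitor of basic helix-loop-helix factors and the second a Notch-responsive repressor. Sox2, the progenitor factor, stood at 45.5, 23.8 and 34.3 and Gata3 at 36.8, 23.2 and 37.1. Hes5 and Sox10 had no region within 1 kb of an end at any age, and Fgfr3 had one at P2 and P8.

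Hair cell genes had a member in 8 of 24 cases (33.3%, 17.97 to 53.3), an interval that holds the 51% of all genes. Myo6, an unconventional myosin that is also used in many other cells, was the highest (93.8, 93.2 and 92.4), then Cib2, a part of the transduction channel complex (82.5, 80.7 and 78.7), and Tmc1, its channel subunit (73.7, 69.3 and 73.6). Lowest were Cdh23, the tip link cadherin (39.9, 0.820 and 36.0), and Ush1c (14.5, 21.2 and 26.2). Myo7a stood at 59.1, 70.3 and 32.0. Pou4f3, Gfi1 and Barhl1 had no region at an end at any age, and Atoh1 had one at P5 (5.56) and P8 (33.4) only. Otof, the synaptic calcium sensor, was called at P2 only (31.5), as was Slc26a5, the motor protein of outer hair cells (2.31).

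Genes of the lateral wall and stria, which make the potassium-rich endolymph, had a member in 12 of 22 cases (54.5%, 34.7 to 73.1), near the 51% of all genes. Mitf, the melanocyte factor, stood at 95.7, 95.8 and 96.3, and Pou3f4, a factor of the surrounding mesenchyme, at 87.8, 78.1 and 87.7. Slc12a2, a chloride cotransporter, stood at 80.9, 87.4 and 86.4. Only the outer ends of a gene were counted, so a start inside Mitf or another of these genes was not assessed. Pmel, a pigment gene, stood at 99.9, 99.8 and 99.8, but its member was also within 1 kb of an end of Rab5b, a broadly used gene. Kcnq1, Dct, Tyr, Tbx1, Foxi1 and Esrrb had none, and Coch, the gene of the matrix protein cochlin, was called at P2 (34.1) and P8 (44.0). Neuron genes had one in 10 of 20 cases (29.9 to 70.1%), led by Syt1 (89.1, 85.8 and 83.1), with Nefh at 66.2, 45.8 and 9.30. Of 14 genes of Schwann and satellite glia 6 had one (21.4 to 67.4%), so both intervals also hold 51%, with S100b, a calcium-binding protein of glia, at 84.5, 88.2 and 88.6.

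**Figure D5:**
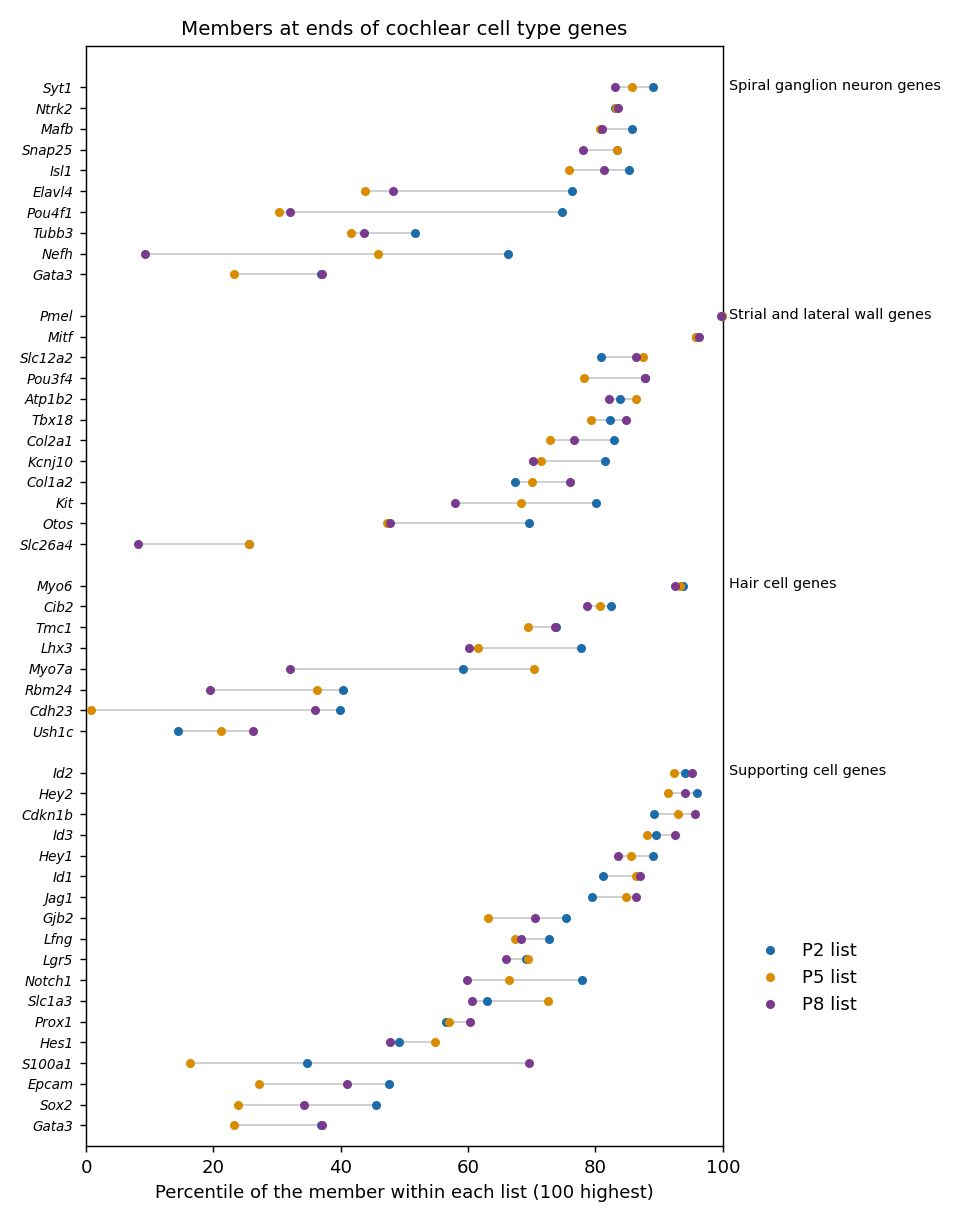
Percentile of the member at each supporting cell, hair cell, strial and lateral wall, and spiral ganglion neuron gene that had one, within the P2, P5 and P8 lists, with a grey line from the lowest to the highest. Values run from 0.820 (Cdh23 at P5) to 99.9 (Pmel at P2), and the high members lie close together across the lists.

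The connexins form the channels through which supporting cells pass ions, and 6 of 18 genes of the gap junction group had a member (33.3%, 16.3 to 56.3, which holds 51%). Beside Gjb2 (chr14:57104442-57104940, with its midpoint 11 bases after the listed start, in the sequence shown above), they included the pannexin gene Panx1 (83.8, 80.5 and 57.2), Gjc1 (76.0, 68.4 and 62.5) and Gja4 (72.5, 50.5 and 42.2). Gjb6 was called at P8 only (chr14:57133177-57133675). Gja1, the connexin of most other tissues, had no region within 1 kb of its ends.

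Markers of other cells that a dissected cochlea can hold varied against the 51% of all genes. Erythroid, macrophage, endothelial and brain genes had intervals below it, and those of bone (11.7 to 54.6%) and skeletal muscle (25.4 to 74.6%) held it. It was 0 of 10 erythroid genes, 1 of 14 macrophage genes (Spi1 at 84.3, 79.9 and 81.4, with Ptprc and Csf1r at no age), 1 of 12 endothelial genes (Cdh5, above), 2 of 12 brain genes and 4 of 14 bone genes, with Col1a1 at 71.3, 79.3 and 74.2. Skeletal muscle genes had 6 of 12. Of these, Mylpf (98.8, 99.8 and 99.7) shared its member with Tbc1d10b and Actn3 (97.8, 97.8 and 95.4) with Zdhhc24, so the highest of them were also at ends of other genes. Among 18 housekeeping reference genes, 15 had a member, the highest at Rplp0 (99.0, 99.5 and 97.8).

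Members at 3-prime ends only were few but could stand high. Bcat2, an enzyme that breaks down branched-chain amino acids, had one 337 bases from its end (chr7:45589124-45589622; 99.5, 99.7 and 98.4). Others were at Sec14l2 (99.3, 97.4 and 98.4), Fam120a with Phf2os1 (97.9, 96.3 and 95.7), Gm41853 (97.6, 95.4 and 95.7) and 4933431E20Rik (94.6, 96.5 and 92.5). The peak widths of the Bcat2 member were 506, 494 and 581 bases, narrow for its height. Of the 11162 genes with a member, 754 (6.76%) had one at both ends. The most for 1 gene was 3, found for Abhd14b, Copz2, Coq8b, Cox19 and Dmpk among others.

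Non-coding genes of each kind counted had members less often than protein-coding genes. A member lay within 1 kb of 127 of 408 tRNA genes (31.1%, 26.8 to 35.8), 2548 of 12727 long non-coding RNA genes (20.0%), 133 of 1228 microRNA genes (10.8%, 9.21 to 12.7), 52 of 1004 small nuclear RNA genes (5.18%), 53 of 1340 small nucleolar RNA genes (3.96%) and 189 of 9944 pseudogenes (1.90%). The tRNA genes shared 95 distinct members, of which 24 also lay at a protein-coding end. Rn7sk, the RNA that holds back the elongation factor P-TEFb, had a member at 82.2, 95.5 and 92.9. Many tRNA and small nuclear RNA genes exist in near-identical copies, and the placing of their reads is not stated.

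Mir210 had the highest member among microRNA genes with no protein-coding end nearby. miR-210 is known as the microRNA induced by low oxygen, and its mature arms are shown because the member lies beside its gene. The member (chr7:141221597-141222104, percentiles 98.5, 98.6 and 96.6) lies 357.5 bases from the nearer end of the gene. The mature arms are on the minus strand at lower coordinates, so the member lies upstream of them. Capitals mark the seed, bases 2 to 8, and the sequences are from RefSeq on GRCm38.p6.
mmu-miR-210-3p: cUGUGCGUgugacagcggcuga
mmu-miR-210-5p: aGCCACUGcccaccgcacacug
The next were Mir1956 (91.6, 97.7 and 96.7), Mir7655 (94.97, 92.8 and 93.2), Mir7653 (91.6, 93.0 and 96.1) and Mir6976 (93.5, 92.7 and 93.5). The members of Mir1956 and Mir7653 also lay 67 and 151 bases upstream of the listed start of another gene. None of the mature seeds of these microRNA genes in the RefSeq table was shared with another of them.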

How the data were processed

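ATAC-seq was done by the authors on nuclei of 10 CD1 mice. The tools listed in the submitters' processing notes are Trimmomatic (0.33), Subread (1.4.6-p3) and MACS2 (2.1.0), and the build is mm10. No source used here gives their settings, a shift for the transposase or the placing of reads with several matches. The deposited lists, 1 per age, have the 20-column layout of IDR (irreproducible discovery rate), a method that keeps the peaks ranking alike in 2 inputs. Which animals formed the inputs is not given. The authors' ranking value is on the −log10 p-value scale, the deposited IDR score is a −log10 IDR whose lowest values mark an IDR of 0.05, and the other columns used are coordinates of the peaks and their inputs.

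Peaks were merged, given percentiles by ranking value within each list, and set against 49939 genes (RefSeq annotation of GRCm38.p6) with Python 3.11.15, pandas 2.3.3 and scipy 1.17.1. Starts were read from the RefSeq promoter table, which gave a strand for 79.9% of 21883 protein-coding genes. All 349 symbols of the gene lists were matched. Merging and annotation were tested on simulated regions. With 1 list per age no test was possible, so counts, shares with 95% Wilson intervals and medians are described. P-values of the lists were not combined. Named genes were, by rule, the 10 highest and 5 lowest members, the 5 of widest range, the 3 nearest each side of the limit, per gene list the 2 highest and 2 lowest and up to 4 without a member, Gjb2 and Gjb6, the 5 highest divergent pairs and 3-prime members and the 5 genes with most members; others were chosen after their values were seen. The members and lists were chosen with earlier results of these data known. Alternatives tried were other distances, overlaps, list lengths, IDR limits and gene types. Some genes under the rule for named genes are not reported here.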

Additional observations from a re-analysis of the deposited data

How the results depend on the processing

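The number of members kept within 1.5 times of 12208 under all 8 alternatives, from 9434 with the upper 50% of each list to 14374 with a limit of 2 kb. The share at starts (73.4%) was 76.2% at 500 bp, 70.0% at 2 kb and 76.3% with protein-coding genes only, and that at 3-prime ends (5.87%) was 3.83%, 8.56% and 4.64%. The share of midpoints within 100 bases of a start (66.4%) was 61.1% at 2 kb, 68.2% with protein-coding genes only and 69.5% with the upper 50% of each list. Centres within 50 bases were 85.6% in members and 80.04% elsewhere with the upper 50%, 85.7% and 77.2% when 250 bases had to overlap, and, in bands added after seeing the data, 53.5% and 65.3% in the lowest and 86.4% and 81.4% in the highest. The median mean percentile (83.2) was 80.2 at 2 kb and 85.5 with protein-coding genes only. Genes with a member at their start (49.5%) were 45.1% at 500 bp, 53.4% at 2 kb and 43.1% with the upper 50%. GGGCGG was at 70.8% at 500 bp and CCGGAAG at 20.8%, and at 21.5% with the upper 50%. At a CpG ratio of at least 0.6 the median ratio was 0.847, GGGCGG 75.6%, CCGGAAG 22.3% and TATAAA 5.39%. Divergent pairs numbered 689 with protein-coding genes only. Of 57 values under alternatives, the other 27 stayed within the interval or tolerance of the main value. The order of members and other regions in centres within 50 bases (83.1% and 75.5%) turned in the lowest band alone among these settings. No paired analysis was possible because each list pools the animals of its age, and leaving out a replicate could not be run for the same reason. Depth is unknown, so a gene without a peak cannot be told from one below detection.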
